A study of Mus musculus with 12 samples.

Results

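Stathmins, CRMPs (collapsin response mediator proteins) and doublecortins are microtubule regulators of growing axons, and 10 of their genes were followed across 12 RNA sequencing libraries labelled as mouse cortical neurons isolated by flow cytometry. The genes were picked by symbol: Stmn1, Stmn2, Stmn3, Stmn4, Crmp1, Dpysl2, Dpysl3, Dpysl5, Dcx and Dclk1. All 10 were among the 23253 genes of the deposited count table, and all 10 passed the filter on low counts, which kept 17909 genes. The libraries formed 4 groups of 3, all from C57BL/6 mice per the labels: adult control, P4 control, adult stroke, and adult stroke with GDF10 siRNA. Stroke was produced by light on the exposed skull for 15 min after the photosensitive dye rose bengal, and the lesion measured 2 mm. The labels do not spell out P4, and they describe the growth of every sample, P4 included, as that of an adult mouse. They give no sex, no time after stroke, no siRNA dose or route, and no word on whether the libraries of a group were separate animals, so p-values measure the spread between these libraries only.

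Total counts per library ranged from 10517638 to 48633350. Gdf10, the secreted TGF-beta family protein named in the siRNA label, had 15, 21 and 0 counts in adult controls 1 to 3 and 0, 5 and 0 in stroke libraries 4 to 6. It had 8, 7 and 1 in siRNA libraries 1 to 3 and 189, 241 and 33 in P4 libraries 4 to 6. These counts are small, those of the siRNA group are not below those of stroke, and that group is therefore called siRNA-labelled. Its treatment and source labels name GDF10 siRNA, while its titles and the comparison headings of the table name only GDF10. Whether siRNA or GDF10 itself was given is therefore uncertain for every value of this group. The numbers 1 to 3 are used for adult control and siRNA-labelled libraries, 4 to 6 for the other groups. A batch following these numbers cannot be told apart from the group in stroke or P4 against adult control, in siRNA-labelled against stroke, and in siRNA-labelled against P4. Stroke against P4, and siRNA-labelled against adult control, lie within 1 set of numbers.

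Microtubules are the tracks inside axons and grow or shrink by adding or losing tubulin dimers. Stathmins bind free tubulin dimers and favour shrinkage. CRMPs are cytosolic proteins that carry the signal of repulsive semaphorins to the cytoskeleton, and doublecortins bind along microtubules and stiffen them. All 3 families are abundant in neurons that are migrating or extending axons.

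RefSeq promoter windows, each with 250 bases before and 50 bases after a transcription start (GRCm38, the assembly called mm10), were at hand for 5 of the 10 members: Stmn3, Dclk1, Dpysl5, Crmp1 and Dcx. Windows are printed for Dcx, Dpysl5 and Crmp1, whose levels differed over 30-fold between P4 and adult control, and for Stmn3, whose rise was the smallest among the members that rose. Dcx lies on the minus strand at chrX:143933170-143933469. Dpysl5 lies on the plus strand at chr5:30711314-30711613. Crmp1 lies on the plus strand at chr5:37241808-37242107. Stmn3 lies on the minus strand at chr2:181314451-181314750. Capitals mark each match to the GC box GGGCGG or to the SOX motif ACAAAG, searched on both strands.
Dcx: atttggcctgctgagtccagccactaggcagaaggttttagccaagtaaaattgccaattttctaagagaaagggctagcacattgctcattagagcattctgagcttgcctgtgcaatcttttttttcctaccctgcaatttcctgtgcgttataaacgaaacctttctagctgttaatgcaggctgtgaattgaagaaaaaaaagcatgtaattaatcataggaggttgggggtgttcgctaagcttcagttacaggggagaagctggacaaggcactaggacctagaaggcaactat
Dpysl5: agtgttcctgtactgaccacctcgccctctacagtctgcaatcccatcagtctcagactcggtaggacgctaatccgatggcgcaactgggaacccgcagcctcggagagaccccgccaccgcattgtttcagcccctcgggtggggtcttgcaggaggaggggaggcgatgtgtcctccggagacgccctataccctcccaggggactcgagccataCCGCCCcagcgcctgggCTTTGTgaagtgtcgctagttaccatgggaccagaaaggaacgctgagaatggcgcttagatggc
Crmp1: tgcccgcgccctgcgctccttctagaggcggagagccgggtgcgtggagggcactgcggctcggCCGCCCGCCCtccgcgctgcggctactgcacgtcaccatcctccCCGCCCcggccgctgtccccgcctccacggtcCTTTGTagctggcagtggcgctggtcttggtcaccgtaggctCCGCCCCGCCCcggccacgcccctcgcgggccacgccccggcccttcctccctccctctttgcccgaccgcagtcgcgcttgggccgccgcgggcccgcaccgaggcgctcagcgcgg
Stmn3: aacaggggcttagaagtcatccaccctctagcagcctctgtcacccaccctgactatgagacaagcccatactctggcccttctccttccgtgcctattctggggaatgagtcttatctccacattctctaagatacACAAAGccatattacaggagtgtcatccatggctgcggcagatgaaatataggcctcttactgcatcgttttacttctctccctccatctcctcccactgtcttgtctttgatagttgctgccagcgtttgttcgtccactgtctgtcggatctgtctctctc
The Crmp1 window held 5 GC boxes, 4 of which overlap each other in pairs, and 1 SOX motif. The Dpysl5 window held 1 of each. The Stmn3 window held 1 SOX motif and no GC box, and the Dcx window held neither. Of 32851 windows of the same length, 35.7% held a GC box and 18.7% a SOX motif. G and C made up 77.0% of the Crmp1 window, 61.0% of Dpysl5, 49.7% of Stmn3 and 43.0% of Dcx, against a median of 52.7% over all windows. The table holds a second window for Crmp1 and for Dcx, and the most upstream of each is printed. The other Crmp1 window held 2 GC boxes and 1 SOX motif, and the other Dcx window held 1 SOX motif and no GC box, so the matches of a gene depend on the start chosen.

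The first comparison set P4 against adult control. Of the 10 members, 8 rose in P4 and none fell, while Stmn4 and Dpysl2 did not pass the test. Of all 17909 genes tested 16.8% changed, 6.32% upward and 10.4% downward (edgeR quasi-likelihood test, Benjamini-Hochberg adjusted p under 0.05). For the same 8 members every P4 library lay above every adult control. Among all genes 16.1% lay higher without overlap and 16% lower. DESeq2 also called 8 members, and 27.2% of all genes. The authors' deposited table likewise had 8 members higher in P4 at a false discovery rate under 0.05, and 15.4% of its genes differed. The median log2 fold change was 3.70 over the members and -0.16 over all genes. Together the 10 members took 1.79 to 1.98% of all counts in the P4 libraries and 0.191 to 0.253% in adult control. In such bulk libraries, fewer cells of a type and less RNA per cell cannot be told apart.

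**Figure D1:**
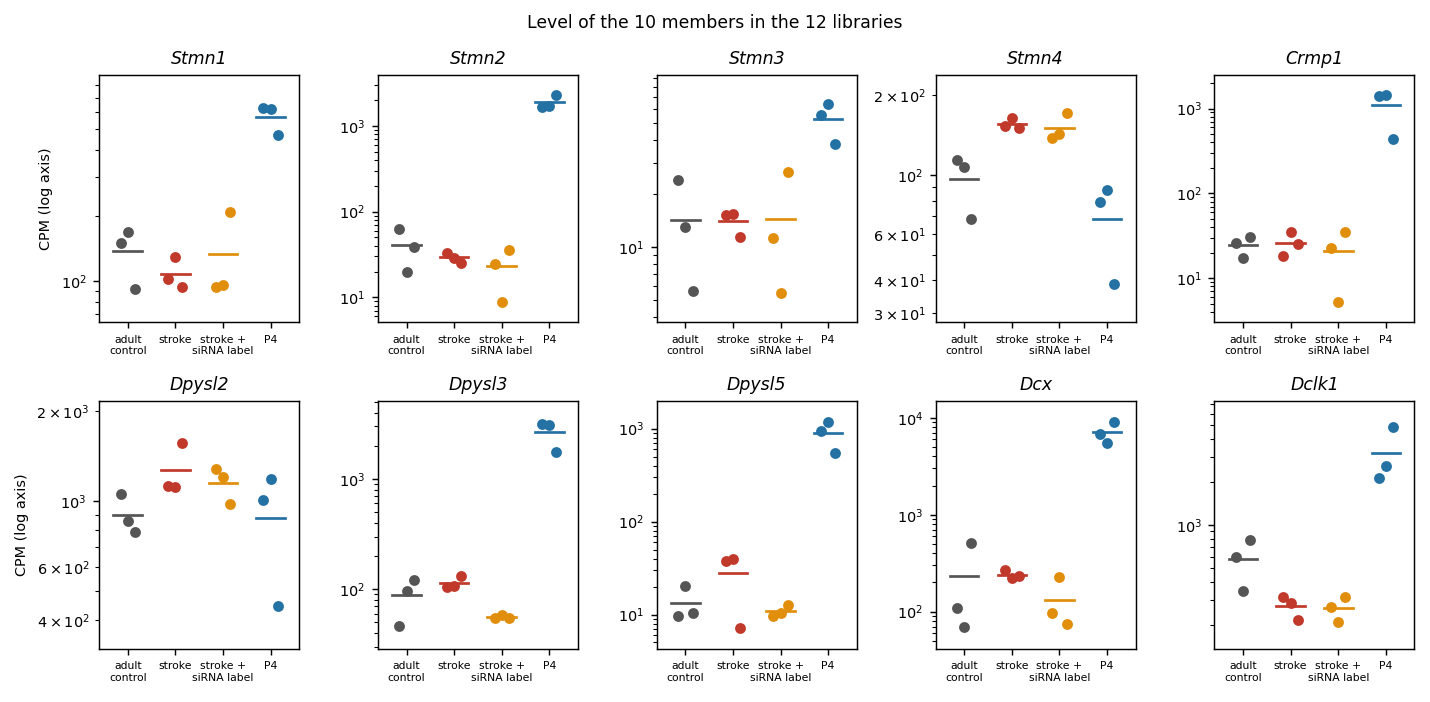
Level of each of the 10 members in the 12 libraries, in CPM (counts scaled to library size with TMM factors) on a log axis; points are libraries and bars are group means. P4 libraries lie above all adult libraries for 8 members, for example 5453 to 9031 CPM of Dcx against at most 515, and not for Stmn4 and Dpysl2.

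Among the stathmins, Stmn2 had the largest difference. Stmn2 encodes SCG10, a membrane-anchored stathmin of neurons that is concentrated in growth cones (chromosome 3, 8509360 to 8561606, mm10). Its level was 1679, 1726 and 2309 CPM in P4 libraries 4 to 6, and 62.8, 19.8 and 38.6 CPM in adult controls 1 to 3. Every P4 library was thus far above every adult control, and the log2 fold change was 5.56 (SE 0.55, adjusted p = 7.84e-06, n = 3 each). Stmn1, the founding cytosolic stathmin, which dividing cells also make (chromosome 4, 134468320 to 134473843), was at 626, 618 and 469 CPM in P4 and at 149.8, 168 and 92.0 CPM in adult control. Its log2 fold change was 2.06 (SE 0.37, adjusted p = 0.00121), a 4.18-fold difference against 47.2-fold for Stmn2. Stmn3, which encodes the neuronal stathmin SCLIP (chromosome 2, 181306459 to 181314500), was at 55.4, 64.2 and 38.4 CPM in P4 and at 24.0, 13.0 and 5.59 CPM in adult control. It rose by 1.89 on the log2 scale (SE 0.61, adjusted p = 0.0475), close to the threshold. That call was lost in 9 of the 12 fits that left out 1 library: each P4 library, adult control 2 or 3, each stroke library, or siRNA-labelled library 1. It was also lost in a fit of only these groups. In the 12 fits the value ranged from 1.52 to 2.50 and the adjusted p from 0.0303 to 0.15.

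Stmn4 stood apart from the other stathmins. It encodes RB3, a membrane-anchored stathmin (chromosome 14, 66344296 to 66361680), and its level was 78.8, 87.6 and 38.9 CPM in P4 and 114, 107 and 68.3 CPM in adult control. The groups overlapped, and the log2 fold change was -0.49 (SE 0.34, adjusted p = 0.371).

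Of the 4 CRMP genes, 3 rose in P4 by over 30-fold. Dpysl5 encodes CRMP5 (chromosome 5, 30711564 to 30799375) and had the largest fold of all members. Its level was 955, 1187 and 541 CPM in P4 and 9.60, 20.3 and 10.27 CPM in adult control. The P4 libraries lay far above, by 6.06 on the log2 scale (SE 0.63, adjusted p = 1.09e-05). Crmp1, a mediator of semaphorin 3A signalling (chromosome 5, 37241940 to 37292133), was at 1423, 1463 and 438 CPM in P4 and at 26.1, 17.4 and 30.3 CPM in adult control. P4 library 6 lay well below the other two, yet all 3 lay above adult control (5.49, SE 0.68, adjusted p = 5.05e-05). Dpysl3 encodes CRMP4, which also binds actin (chromosome 18, 43320984 to 43438286), and was at 3186, 3087 and 1774 CPM in P4 and at 46.6, 96.3 and 121 CPM in adult control (4.93, SE 0.41, adjusted p = 1.27e-06). Its p was the 4th smallest of all genes in a test of any difference over the 4 groups, which called 8 of the 10 members (not Stmn4 or Dpysl2) and 20.1% of all genes.

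Dpysl2 encodes CRMP2, which binds tubulin dimers and promotes microtubule assembly (chromosome 14, 66802864 to 66868688). Its level was 1009, 1179.7 and 444 CPM in P4 and 1052, 854 and 784 CPM in adult control. The P4 libraries lay on both sides of adult control, and the log2 fold change was -0.03 (SE 0.34, adjusted p = 0.967). The sign turned in a fit of only these groups (0.01), and in fits without P4 library 6 (0.30), adult control 1 (0.11) or stroke library 4 (0.14).

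Both doublecortin genes rose. Dcx, the microtubule-binding protein of migrating neurons whose mutation causes X-linked lissencephaly (chromosome X, 143855842 to 143933311), was at 6875, 5453 and 9031 CPM in P4. In adult control it was at 108, 68.9 and 515 CPM, so adult control 3 lay well above the other two and still far below P4. The log2 fold change was 4.95 (SE 0.70, adjusted p = 0.000163), and 6.33 without adult control 3 (adjusted p = 1.27e-06). Xist, the RNA of the inactive X chromosome, was at 2045 to 3649 CPM in P4 and at 3.23 to 193 CPM in adult control, so the groups are not matched for this sex marker. P4 libraries 4 to 6 held 0.0562, 33.5 and 148 CPM of Ddx3y, which lies on the Y chromosome, and adult control 109 to 474 CPM, so the P4 libraries also differed among themselves. The part of sex in the level of the X-linked Dcx was not tested. Dclk1, which joins doublecortin domains to a kinase domain (chromosome 3, 55242364 to 55539068), was at 2117, 2571 and 4852 CPM in P4 and at 596, 343 and 778 CPM in adult control (2.47, SE 0.39, adjusted p = 0.00039). Gm21954 and an antisense gene overlap Dclk1 on the opposite strand, and Evc overlaps Crmp1 likewise. The strand setting of the counting is not given, so reads of these partners cannot be told from those of Dclk1 and Crmp1.

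Per kilobase of annotated exon, the order of the members differed between P4 and adult control. In P4 the level per length was highest for Dcx, at 563 ± 142 RPKM, followed by Dpysl3 at 406 ± 119 and Stmn2 at 340.0 ± 62.7 RPKM (SD, n = 3 each). The library ranges of these neighbours overlap, at 431 to 714, 268 to 482 and 300 to 412 RPKM. Stmn3 and Stmn4 were last, at 46.4 ± 11.6 and 35.7 ± 13.5 RPKM. In adult control Dpysl2 was first, at 198 ± 30.7 RPKM, above Stmn1 at 71.1 ± 20.7 and Stmn4 at 50.3 ± 12.8 RPKM. Dcx lay in the middle there, at 18.2 ± 19.5 RPKM, and Crmp1 and Dpysl5 were last at 3.50 ± 0.936 and 1.81 ± 0.813 RPKM. Dpysl2 was also first in stroke, at 279.7 ± 56.6 RPKM, and in the siRNA-labelled group, at 255 ± 34.6 RPKM.

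**Figure D2:**
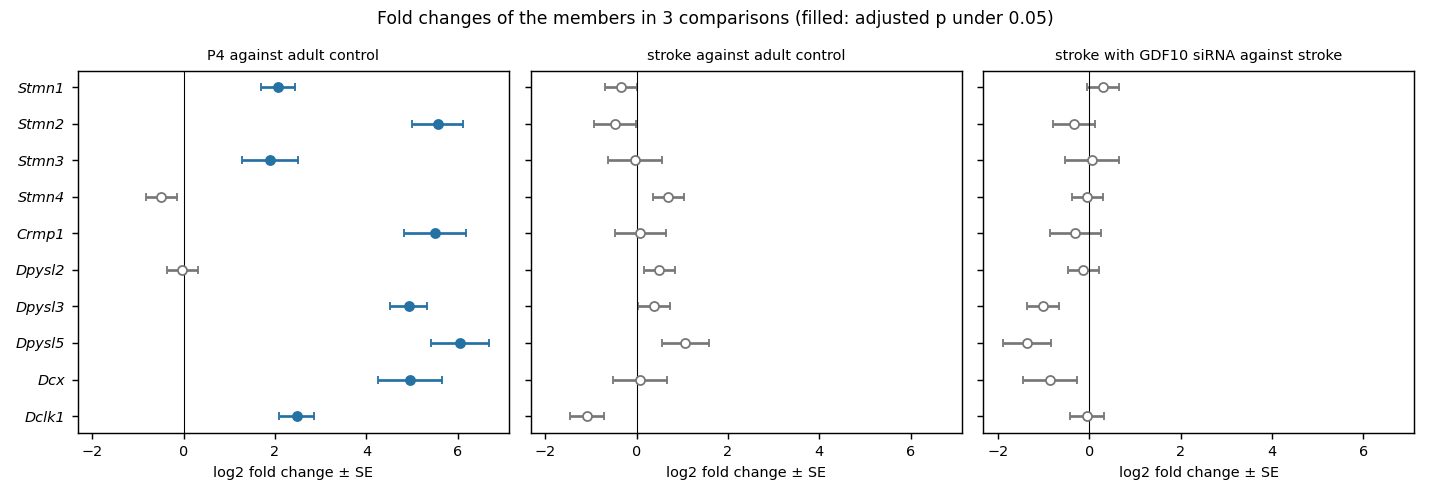
Log2 fold change with its standard error for the 10 members in P4 against adult control, stroke against adult control, and siRNA-labelled stroke against stroke; filled points have an adjusted p under 0.05. In P4 8 members lie between 1.89 and 6.06, and in the other panels no point is filled and values lie between -1.37 and 1.06.

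The second comparison set stroke against adult control, and no member passed. Of all genes tested, 0.704% changed, 0.486% upward and 0.218% downward. Pairs of adult control libraries had correlations of log2 CPM from 0.681 to 0.902, against 0.900 to 0.948 for pairs of stroke libraries. The count of genes called depended on the controls. Without adult control 2, 239 of 18765 genes rose and 309 fell, and 0 members passed. With edgeR 1 of the 10 members, Dclk1, had an unadjusted p under 0.05, a lower share than the 15.9% of all genes that did. DESeq2 likewise called 0 members, and 7.86% of all genes. The authors' deposited table called 0 members and 3.02% of its genes. The median log2 fold change of the members was 0.07, against -0.08 over all genes. Dclk1 was at 311, 283 and 216 CPM in stroke libraries 4 to 6, below every adult control. The log2 fold change was -1.08 (SE 0.37, adjusted p = 0.188). Of all genes, 9% were lower without overlap.

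Stmn4 and Dpysl2, the members that did not differ in P4 by the test, were higher in stroke than in adult control without overlap, as were 11% of all genes. Stmn4 was at 154, 164 and 150.2 CPM in stroke (log2 fold change 0.69, SE 0.34, adjusted p = 0.338). Dpysl2 was at 1125, 1108 and 1559 CPM (0.50, SE 0.34, adjusted p = 0.491). Neither passed. Dpysl5 was at 37.8, 39.2 and 7.22 CPM in stroke, so stroke libraries 4 and 5 lay above every adult control and stroke library 6 below (1.06, SE 0.52, adjusted p = 0.329). Dcx was at 268, 220.3 and 235 CPM in stroke, between adult control 3 and the other two, and the difference was 0.07 on the log2 scale (SE 0.59, adjusted p = 0.969). This value was 1.45 without adult control 3 (adjusted p = 0.199), and it took the other sign with another scaling of the libraries (-0.16) and without adult control 2 (-0.36).

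The other 5 members overlapped between stroke and adult control. Stmn1 was at 102, 128 and 93.8 CPM in stroke, and Stmn2 at 33.3, 29.1 and 25.1 CPM. Stmn3 was at 15.1, 15.4 and 11.3 CPM, and Crmp1 at 18.3, 34.7 and 25.0 CPM. Dpysl3 was at 104, 107 and 133 CPM. Their log2 fold changes lay between -0.47 for Stmn2 and 0.38 for Dpysl3, with adjusted p from 0.618 to 0.984.

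The third comparison set siRNA-labelled stroke against stroke. No member passed, and 0.00558% of all genes, a single one, did. With edgeR 2 of the 10 members, Dpysl3 and Dpysl5, had an unadjusted p under 0.05, as did 7.37% of all genes. DESeq2 called 0 members, and 1.08% of all genes. The authors' deposited table called 0 members and 0.159% of its genes. Of the 10 members 8 had a negative value, with a median of -0.22 against 0.04 over all genes. The signs of Stmn4 (-0.05) and Dclk1 (-0.05) turned with another scaling, to 0.01 each. Leaving out 1 library turned the signs of Stmn2, Stmn4, Crmp1, Dpysl2 and Dclk1 in some fits, and those of the positive Stmn1 and Stmn3.

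Dpysl3 was the single member whose libraries did not overlap. It was at 55.4, 58.9 and 55.1 CPM in siRNA-labelled libraries 1 to 3, below the 3 stroke libraries. Of all genes 8.11% were lower without overlap and 7.77% higher. The log2 fold change was -1.02 (SE 0.35, adjusted p = 0.594). Dpysl5 was at 9.65, 10.4 and 12.5 CPM, below stroke libraries 4 and 5 and above stroke library 6 (-1.37, SE 0.52, adjusted p = 0.607). Dcx was at 97.2, 225 and 73.8 CPM, and siRNA-labelled library 2 lay within the range of stroke (-0.87, SE 0.60, adjusted p = 0.773). The level of Stmn2 was 24.7, 8.80 and 35.7 CPM, and that of Crmp1 22.6, 5.21 and 35.1 CPM, so siRNA-labelled library 2 was the lowest of the 3 for both, as it was for Stmn3 at 11.3, 5.50 and 26.6 CPM. The level of Stmn1 was 93.9, 95.8 and 208 CPM, and that of Stmn4 138, 143 and 171 CPM. The level of Dpysl2 was 1279, 1197 and 977 CPM, and that of Dclk1 265, 207 and 310.4 CPM.

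Against adult control, a comparison that shares its siRNA-labelled libraries with the one above, 0 members passed in the siRNA-labelled group, where 0.117% of all genes did (0.0838% upward, 0.0335% downward). The authors' deposited table called 0 members there and 0.839% of its genes. DESeq2 called 0 members and 2.22% of all genes. With edgeR 1 of the 10 members had an unadjusted p under 0.05, close to the 8.36% of all genes that did. This was Dclk1, whose siRNA-labelled libraries lay below every adult control (log2 fold change -1.13, SE 0.37, adjusted p = 0.392), as did 4.47% of all genes. Dclk1 thus lay lower than adult control in both stroke groups, by like amounts and without passing, and the adult control libraries are the same in both. Stmn4 lay higher than adult control without overlap, as in stroke (0.64, SE 0.34, adjusted p = 0.654), and so did 6.35% of all genes. The other 8 members overlapped, with log2 fold changes between -0.81 for Stmn2 and 0.36 for Dpysl2.

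Set against P4, both stroke groups were far lower in the same 8 members that separated P4 from adult control, and higher in Stmn4. In stroke 8 members were called lower and 1 higher. Of all genes 18.8% were called, 7.94% lower and 10.8% higher. Without overlap 21.7% lay lower and 22.6% higher. In the siRNA-labelled group 8 members were lower and 1 was higher, where 19.6% of all genes were called, 8.05% lower and 11.6% higher. Without overlap 18.7% lay lower there and 20.7% higher. DESeq2 called 9 members in each, and 26.5% and 27.8% of all genes. The authors' deposited table also called 8 lower and 1 higher in each, with 16.6% and 17% of its genes called. These comparisons share the P4 libraries with the first one. In stroke the log2 fold changes of the 8 ran from -6.03 for Stmn2 (SE 0.57, adjusted p = 3.19e-06) to -1.92 for Stmn3 (SE 0.61, adjusted p = 0.0401). In the siRNA-labelled group they ran from -6.37 for Stmn2 (SE 0.58, adjusted p = 2.27e-06) to -1.86 for Stmn3 (SE 0.61, adjusted p = 0.0445). Dcx differed by -4.88 in stroke and by -5.75 in the siRNA-labelled group, and Dpysl5 by -4.99 and -6.36. Stmn4 rose by 1.19 in stroke (SE 0.35, adjusted p = 0.0245) and by 1.14 in the siRNA-labelled group (SE 0.34, adjusted p = 0.0297). Dpysl2 did not pass in either, at 0.53 and 0.39.

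The Stmn3 and Stmn4 calls against P4 were lost in several of the fits that left out 1 library, and those of the other 7 members in none. The signs of both held in all of these fits. In stroke against P4 the Stmn3 call was lost without P4 library 4 or 5, without any 1 stroke library, or without siRNA-labelled library 1 (log2 fold change -2.15 to -1.75 over all 12 such fits, adjusted p up to 0.147). The Stmn4 call was lost there without P4 library 4 or 6 or any 1 stroke library (0.90 to 1.40, adjusted p up to 0.125). In siRNA-labelled stroke against P4 the Stmn3 call was lost without P4 library 4 or 5, stroke library 5 or 6, or siRNA-labelled library 1 or 2 (-2.66 to -1.48, adjusted p up to 0.169). The Stmn4 call was lost there without P4 library 4 or 6, stroke library 4 or 5, or any 1 siRNA-labelled library (0.84 to 1.35, adjusted p up to 0.096), and also in a fit of only these groups.

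The label of sorted neurons was checked against markers. The 15 pan-neuronal markers took 0.252 to 0.703% of counts in adult control, 0.200 to 0.265% in stroke, 0.1997 to 0.314% in the siRNA-labelled group and 0.560 to 0.768% in P4. The 12 mature oligodendrocyte markers, genes of myelin-forming glia, took 3.93 to 9.44%, 5.28 to 6.54% and 6.61 to 10.6% in the 3 adult groups and 0.0118 to 0.0317% in P4. Oligodendrocyte RNA was thus more abundant than that of the neuronal markers in every adult library. The 8 markers of committed oligodendrocytes took 0.506 to 0.881% in stroke, 0.213 to 0.285% in the siRNA-labelled group, 0.0823 to 0.202% in adult control and 0.0421 to 0.0492% in P4. The 8 neuroblast markers, genes of newly born neurons, took 0.371 to 0.553% in P4, 0.0246 to 0.0310% in stroke, 0.00990 to 0.0138% in adult control and 0.00966 to 0.0128% in the siRNA-labelled group. The 10 astrocyte markers took 0.406 to 0.613% in adult control, 0.0562 to 0.0851% in stroke, 0.0774 to 0.143% in the siRNA-labelled group and 0.0337 to 0.0578% in P4. The 10 markers of microglia and macrophages took 0.136 to 0.262% in the siRNA-labelled group, above the 0.0322 to 0.102% of stroke and the 0.0713 to 0.0984% of adult control. The 10 excitatory neuron markers took 0.0618 to 0.129% in adult control, 0.0251 to 0.0370% in stroke, 0.0230 to 0.0438% in the siRNA-labelled group and 0.302 to 0.371% in P4. The 10 inhibitory neuron markers took 0.0110 to 0.0165%, 0.00430 to 0.00955%, 0.00256 to 0.00551% and 0.0240 to 0.0357% in the same order. The excitatory, inhibitory and astrocyte shares were each lower in both stroke groups than in adult control without overlap, as was Dclk1. None of these lists had a marker at 0 in all libraries of a group. The neuroblast share was high in P4, where the 8 members were high, and so were the excitatory and inhibitory neuron shares. The mature oligodendrocyte share was low in P4, where Stmn4 was lower than in both stroke groups but overlapped adult control. The shares of committed oligodendrocytes and of microglia and macrophages (0.00239 to 0.00365% in P4) were also lowest in P4 without overlap. So was that of the 8 oligodendrocyte precursor markers, at 0.0141 to 0.0236%. The part of these shares in the results was not tested.

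**Figure D3:**
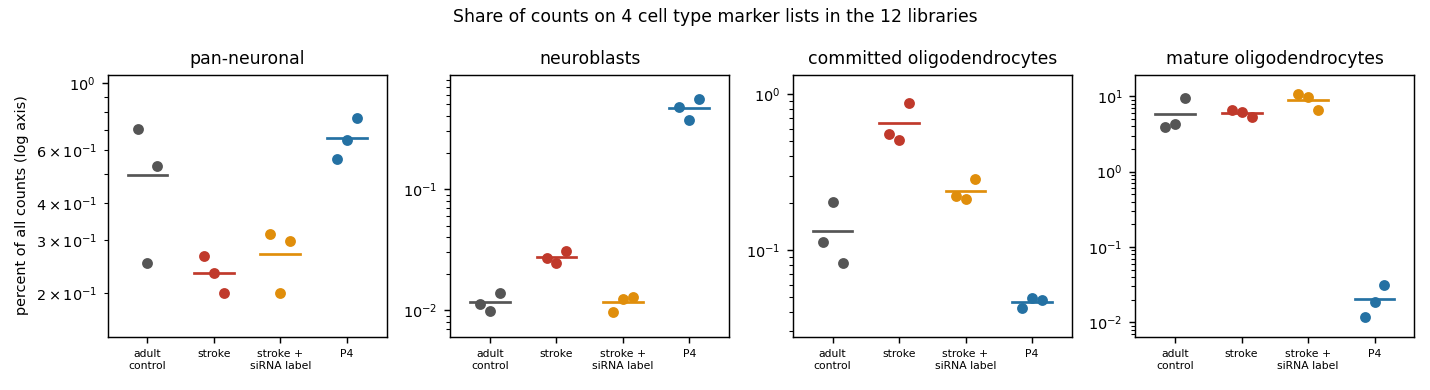
Percent of all counts on 4 marker lists in each library, on a log axis; points are libraries and bars are group means. Mature oligodendrocyte markers take 3.93 to 10.6% in the adult libraries and at most 0.0317% in P4, and neuroblast markers are highest in P4.

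The neuronal share varied between libraries, and adult control overlapped every other group. Each member was therefore also set against the summed CPM of the pan-neuronal markers in the same library, as a description with no test. Per 100 CPM of these markers, Dcx was at 111 ± 21.7 CPM in P4 and 4.31 ± 3.34 in adult control, against 10.24 ± 1.39 in stroke and 5.22 ± 4.24 with the siRNA label (SD, n = 3 each). On this scale 6 members, all but Stmn1 and Stmn3 of the 8, lay higher in P4 than in adult control without overlap and none lower, against 5.95% and 19.6% of all genes. In stroke 4 members lay above adult control without overlap: Stmn2, Stmn4, Dpysl2 and Dcx. None lay below. Of all genes 14.4% lay above and 2.86% below. Stmn2 was at 1.15 to 1.27 CPM per 100 CPM of the markers in stroke and at 0.605 to 1.03 in adult control, and Dpysl2 at 39.0 to 78.5 and 12.3 to 37.9. Stmn4 was at 5.32 to 7.56 in stroke and at 1.07 to 4.75 in adult control. Dclk1, the lower member in CPM, overlapped on this scale, at 10.8 to 12.3 in stroke and 9.80 to 15.2 in adult control. With the siRNA label Dpysl3 lay lower than in stroke without overlap, at 1.69 to 2.64 against 3.60 to 6.68, as did 11.6% of all genes, and no member lay higher, against 4.38%. Between the siRNA-labelled group and adult control no member was free of overlap, where 7.25% of all genes lay higher and 1.25% lower. Against P4, Stmn4 and Dpysl2 lay higher and 6 members lower in both stroke groups. Of all genes 49.3% lay higher and 6.3% lower in stroke. With the siRNA label the shares were 41.3% and 5.75%. The marker list holds Tubb3 and the neurofilament genes, whose own level is known to change as neurons mature, so the ratio is not a level per neuron.

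**Figure D4:**
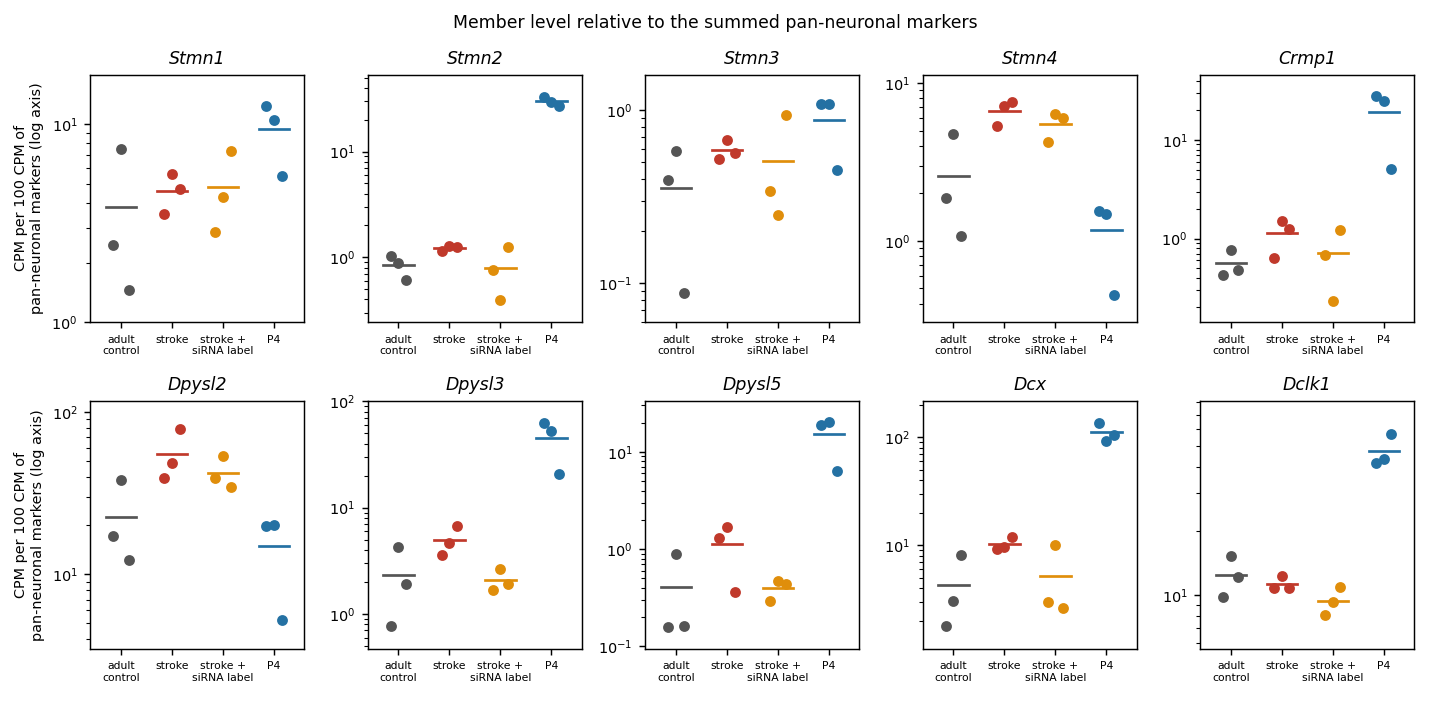
CPM of each member per 100 CPM of the 15 pan-neuronal markers in the same library, on a log axis; points are libraries and bars are group means. Dcx lies at 92.6 to 135 in P4 and at 1.78 to 11.8 in the adult libraries, and the stroke libraries of Stmn2, Stmn4, Dpysl2 and Dcx lie above those of adult control.

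Other genes of the pathway were followed in 4 lists. In P4 against adult control, 10 of 22 measured plus-end, minus-end and severing genes rose and 3 fell. Of all genes 6.32% rose and 10.4% fell. The median log2 fold change of the list was 1.22 against -0.16 over all genes. Vash2, a protease that removes the last tyrosine of alpha-tubulin, rose from 1.57 ± 0.235 to 110 ± 32.2 CPM (6.14, SE 0.84, adjusted p = 0.000132). Mapre2, an end-binding protein, rose from 308 ± 20.0 to 1118 ± 67.8 CPM (1.86, SE 0.25, adjusted p = 9.47e-05), and Mapre1 by 1.57. Fign, which encodes the severing enzyme fidgetin, was lower in P4, at 7.58 ± 5.57 against 72.6 ± 4.34 CPM (-3.27, SE 0.55, adjusted p = 0.000773). Clasp2 (-0.82) and Katnal1 (-0.98) also fell, and lost the call with another scaling, without a filter, in a fit of only these groups and in 8 and 9 of the 12 fits that left out 1 library. These included each P4 and each stroke library and adult control 1 for both, siRNA-labelled library 1 for Clasp2, and adult controls 2 and 3 for Katnal1.

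Of 13 genes of the lissencephaly pathway and dynein partners, 7 rose in P4 and 1 fell (median 0.81), against 6.32% and 10.4% of all genes. Reln, the secreted guide of neuronal layering, rose from 15.8 ± 3.50 to 1030.2 ± 345 CPM (6.03, SE 0.73, adjusted p = 4.37e-05), its receptor Lrp8 from 29.6 ± 10.4 to 380.2 ± 112 CPM (3.68, SE 0.40, adjusted p = 1.59e-05) and the adaptor Dab1 by 2.00. Nde1, a dynein partner of dividing progenitors, was lower in P4, at 2.14 ± 0.215 against 25.1 ± 14.0 CPM (-3.56, SE 0.54, adjusted p = 0.000322). Of 22 kinases and phosphatases acting on the families, 4 rose and 1 fell (median 0.67), against the same shares of all genes. Cdk5r1, the p35 activator of the kinase that phosphorylates CRMP2 and DCX, rose by 2.13 (SE 0.43, adjusted p = 0.00284), Mapk8 by 2.61 and Mark1 by 2.09, and Pak1 fell by 1.28 on the log2 scale, a call lost in a fit of only these groups. None of 6 other family members passed, where DESeq2 called 2, and 27.2% of all genes.

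In stroke against adult control, 1 gene of the 4 lists rose and none fell, where 0.486% of all genes rose and 0.218% fell. Fyn, a Src family kinase that phosphorylates CRMP2, rose from 171 ± 42.9 to 919 ± 353 CPM (2.42, SE 0.34, adjusted p = 0.00435). Fyn also stands on the list of committed oligodendrocyte markers, whose share counts Fyn itself and moved with it. No share without Fyn was computed, and the part of this list in the result was not tested. With the siRNA label Fyn was at 315 ± 86.2 CPM, and in P4 at 241 ± 9.43 CPM. Cdk5r1 did not pass, at 20.1 ± 2.41 CPM after stroke against 57.2 ± 28.6 (log2 fold change -1.51, adjusted p = 0.124). In siRNA-labelled stroke against stroke and against adult control, 0 genes of the lists passed with edgeR.

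The genes outside the families most like them were found by the correlation of log2 CPM with the mean of the 10 members. Over the 12 libraries these were Scn3b (Pearson r = 0.985), Nsg2 (0.985), Nsg1 (0.984), Clstn2 (0.981) and Fam124a (0.980). Scn3b, a sodium channel subunit, was at 297 CPM in P4 and 29.7 CPM in adult control, and Nsg2, a neuronal vesicle protein, at 701 and 55.6 CPM. The P4 libraries form a cluster of their own, so these values describe the distance of P4 from the rest. Over the 9 adult libraries the closest were Pdyn (0.950), Dnajc5 (0.920), Pisd (0.918), Igsf3 (0.912) and Phf21b (0.909). These lists share no gene. The adult values are the highest picked from many genes over few libraries, and were not tested against chance. Pdyn counts were low, with group means of 1.56 (adult control), 2.76 (stroke) and 1.07 CPM (siRNA-labelled). Between members, r over the adult libraries ran from -0.806 (Stmn4 and Dclk1) to 0.819 (Stmn2 and Crmp1). Their mean is thus not a profile that all members share there.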

How the data were processed

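Per the labels, the 12 libraries were made with an Ovation RNA-seq kit and read as 69 bp pairs. The submitters' processing notes name CASAVA 1.8.2, edgeR and mm10. The aligner, counting tool, annotation and strand setting: not given in the sources used here. Analysed values were the deposited raw read counts per gene. The authors' deposited log2 fold changes and the deposited p-values and false discovery rates were read only for counts of calls. The header names the first P4 library P3; it was matched by number. Another 30 columns, each of values per library (log ratios, normalized counts), were not used.

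Genes were filtered with filterByExpr and fitted in R 4.3.3 with TMM factors by edgeR 4.0.16 (quasi-likelihood, 1 mean per group, all 12 libraries), with Benjamini-Hochberg adjustment over 17909 genes and a threshold of 0.05. Fold changes are log2, and SE is the absolute log2 fold change over the square root of F. RPKM is CPM per kilobase of GENCODE M21 exon union. Alternatives were RLE scaling, no filter, DESeq2 1.42.0, fits of 2 groups, a replicate block and leaving out each library. Members and lists were chosen with earlier results of these data known. The rule for names took all members, up to 3 called genes per list, direction and comparison, and the 5 genes most like the members; Cdk5r1 in stroke was named after its values were seen. With 3 libraries a group, precision rests on the spread between libraries.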

Additional observations from a re-analysis of the deposited data

How the results depend on the processing

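The count of called members stayed within 1.5 times of the reported one under every alternative run. It was 8 for P4 against adult control (7 in a fit of only these groups, which lost Stmn3, 7 to 8 leaving out 1 library), 9 for stroke against P4 (7 to 9), and 9 for siRNA-labelled stroke against P4 (8 in a fit of only these groups, which lost Stmn4, 7 to 9). It was 0 in the other 3 comparisons under all alternatives, and 8 for any difference over the 4 groups, where 20.1% of all genes were called (9 members with DESeq2, 7 to 9). The deviations of same-numbered libraries from their group means had correlations of 0.16, 0.0136 and 0.153 for stroke and P4. For siRNA-labelled and adult control libraries they were 0.0642, -0.191 and -0.336. Libraries of unlike number ranged from -0.175 to 0.151 and from -0.317 to 0.481. With so few libraries, these values cannot decide whether the numbers pair the libraries. With the replicate block 9 members passed in stroke against P4 and 0 in siRNA-labelled stroke against adult control.

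Signs turned only for members that did not pass. With RLE scaling and DESeq2, stroke against adult control gave -0.0632 and -0.0647 for Crmp1 and -0.155 for Dcx in both. siRNA-labelled against stroke gave 0.0147 and 0.0143 for Stmn4 and 0.0144 and 0.014 for Dclk1. siRNA-labelled against adult control gave -0.0128 and -0.0129 for Stmn3, and -0.0154 when only these groups were fitted and -0.176 with the replicate block. Dpysl2 in P4 against adult control gave 0.013 when only these groups were fitted. Leaving out 1 library, the log2 fold changes in stroke against adult control ranged from -0.175 to 0.28 for Crmp1, -0.356 to 1.45 for Dcx, -0.79 to 0.0176 for Stmn2 and -0.405 to 0.576 for Stmn3. In siRNA-labelled against stroke they ranged from -0.194 to 0.49 for Stmn1, -0.809 to 0.0453 for Stmn2, -0.74 to 0.442 for Stmn3, -0.159 to 0.00342 for Stmn4, -0.912 to 0.147 for Crmp1, -0.227 to 0.0367 for Dpysl2 and -0.201 to 0.0871 for Dclk1. In siRNA-labelled against adult control they ranged from -0.53 to 0.154 for Stmn1, -0.768 to 0.63 for Stmn3, -0.822 to 0.24 for Crmp1, -0.501 to 0.136 for Dpysl5 and -1.42 to 0.575 for Dcx. For Dpysl2 in P4 against adult control they ranged from -0.291 to 0.304. The cause was not tested. RLE scaling moved the median of all genes by over 0.1 in stroke against adult control (-0.185 against -0.0804) and in stroke against P4 (-0.163 against -0.0356).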

Other observations

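Dpysl4, which encodes CRMP3, was highest in P4 at 21.4 ± 9.82 CPM, followed by stroke at 14.8 ± 2.10, adult control at 4.22 ± 2.68 and siRNA-labelled stroke at 3.85 ± 3.06 (SD, n = 3 each). Its log2 fold change was 1.796 in stroke against adult control (edgeR adjusted p = 0.267), -1.94 in siRNA-labelled stroke against stroke (adjusted p = 0.627) and 2.33 in P4 against adult control (adjusted p = 0.0508), none of which passed. It fell by 2.47 on the log2 scale in siRNA-labelled stroke against P4 (adjusted p = 0.0355), a call lost in 6 of 12 fits that left out 1 library (P4 4 or 5, stroke 5 or 6, siRNA-labelled 1 or 2; -3.27 to -2.02, adjusted p up to 0.141). Dclk3, a doublecortin-like kinase, had 29.0 ± 10.6 CPM in P4 against 17.7 ± 14.3 in adult control, 6.07 ± 1.70 with the siRNA label and 4.29 ± 1.20 after stroke. It fell by 2.75 on the log2 scale in stroke against P4 (adjusted p = 0.00555). Of the 6 other family members, 0 rose and 1 fell there, where 10.8% of all genes rose and 7.94% fell. In siRNA-labelled stroke against P4, 1 rose and 3 fell, where 11.6% of all genes rose and 8.05% fell. Dcdc2a was the one that rose, at 29.4 ± 14.1 CPM against 8.03 ± 4.47 in P4. That call was lost in 4 of 12 fits that left out 1 library.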
